A study of Mus musculus with 3 samples.

Results

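The 10 genes described here encode inducible nuclear factors of the EGR, KLF and NR4A families together with Ier2 and Csrnp1. They were chosen by name, from every non-control spot of a one-colour microarray that carries one of these gene names, and they take up 11 of 43020 non-control spots (10 of 31131 genes). Each gene has 1 probe except Nr4a2, which has 2. On all 3 arrays 9 of the 10 genes were well above background, and Egr3 was not well above background on any.

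The study measured total RNA of mast cells grown from bone marrow progenitors (BMMCs) of male mice without Pafah2 on a C57BL/6 background. Pafah2 encodes an enzyme that cuts oxidised acyl chains off membrane lipids. The vehicle group was given DMSO. The epoxides group was given 17,18-EpETE together with 19,20-EpDPE, which are epoxides of omega-3 fatty acids, mixed 2:3 at 300 nM. The GW9662 group was given 0.5 µM GW9662, which blocks PPAR gamma, a ligand-dependent transcription factor. Treatment lasted 12 h. Each group is 1 array, the animals were 12 weeks old by their sample labels, and the Pafah2 deficiency is common to all groups, with no wild-type array among them. The labels do not say whether animals were pooled.

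Immediate early genes are switched on within minutes of a stimulus from transcription factors that are already present, without new protein synthesis, and many of their products are transcription factors that shape the later response. In mast cells, crosslinking of the IgE receptor induces EGR and NR4A factors through MAP kinase and calcium signalling. The arrays hold 1 time, so the course of any induction was not measured.

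Levels are given on a log2 scale on which 0 is an array's own 75th percentile signal, and a log2 ratio is the difference of the levels of 1 probe on 2 arrays. Scanner files decide here which treated array is which. The value table of the authors has them the other way round: its epoxides column matched the GW9662 scanner file at 100% of spots, and its GW9662 column matched the epoxides scanner file at 100%. Should the table be the correct one, what is written of epoxides holds for GW9662 and the reverse. With 1 array per group there is no error between cultures and no test. The scanner software's error model gave an SD of 0.20 to 0.23 for the log2 ratio to vehicle of a measured member probe, and copies of 1 probe on an array gave a technical SD of 0.080 for either comparison with vehicle. Both cover spot error only.

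Ratios to vehicle spread more widely on the epoxides array (5th to 95th percentile of all genes -0.76 to 0.33) than on the GW9662 array (-0.29 to 0.20). In detection the arrays were alike, with 52.3%, 54.6% and 53.3% of non-control spots well above background on the vehicle, epoxides and GW9662 arrays. No spot was saturated. Of 12 mast cell markers 11 were measured on every array, with a summed linear signal of 660, 512 and 591 times the 75th percentile in that order. Markers of other cells had far smaller sums by the same measure, the largest of them for basophil markers. Neutrophil markers were measured for 4 of 10 on the vehicle array and 5 of 10 on the others (sums of 1.98, 1.42 and 2.06), with Ltf, Ngp and S100a8 not above background on any. Elane had levels of 0.73, 0.22 and 0.66, and Mpo was not above background with vehicle and had -5.42 with epoxides and -2.43 with GW9662. Elane and Mpo are each read from 1 spot in rows 181 to 400. There 7.69% of the copies of repeated probes were 2-fold or more off, against 0.589% elsewhere. In the same order macrophage markers were measured for 5 of 8 (1.79, 1.75 and 1.78), Cd68, Csf1r and Adgre1 among them, with Mrc1 not above background. Of 3 B cell markers Cd79a alone was measured, on the GW9662 array only (-1.77), also from 1 spot in those rows. Whether the Mpo and Cd79a readings are spot faults was not tested. T cell markers were measured for 2 of 4 (2.39, 1.45 and 2.08), where Cd3e had a log2 ratio of -1.09 on the epoxides array. Basophil markers were measured for 3 of 3 (12.9, 12.7 and 12.8). Among them Cd200r3 had levels of 3.26, 3.22 and 3.29 and Mcpt8 1.69, 1.72 and 1.57, beside 1.79, 1.71 and 1.74 for the mast cell marker Mcpt4. Endothelial markers were measured for 2 of 3 on the vehicle and epoxides arrays and 3 of 3 on the GW9662 array (1.07, 0.91 and 1.06). The marker gained there, Cdh5 (-4.09), is also read from 1 spot in rows 181 to 400, and a spot fault was not tested. Erythroid markers were measured for 1 of 3 (0.16, 0.11 and 0.13). The part of other cells in the member ratios was not tested. The Pafah2 probe had levels of 0.03, -0.08 and 0.07 on the vehicle, epoxides and GW9662 arrays, near the 75th percentile of each. Whether it lies in a part of the transcript that remains in these mice was not tested.

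The probes that carry the largest ratios, and both probes of Nr4a2, whose ratios stayed near 0, are shown by the first 30 of their 60 bases. Positions are those of the files in mm9. The files place the Klf2 probe 1399 bases into its transcript (chr8:74845137-74845196, plus strand), that of Egr2 2826 bases in (chr10:67004798-67004857, plus strand), that of Csrnp1 2657 bases in (chr9:119880457-119880516, minus strand) and those of Nr4a2 2050 and 3112 bases in (chr2:56960699-56960758 and chr2:56959637-56959696, minus strand).
Klf2, row 354: tgtatataagactatgaccgattgtatttc
Egr2, row 172: ccgctgatttgtttggttattagctcttaa
Csrnp1, row 165: gtggctcttgagagctcttacgcccttcat
Nr4a2, row 321: aaagaccatgtgactttcaataatgggggt
Nr4a2, row 106: aagggacacatagtgtttgtaacaccgccc

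Promoter windows (250 bases before to 50 after a start site, RefSeq, GRCm38.p6) were lacking for Egr1, Egr3 and Ier2, whose promoters were therefore not searched. For the other 7 of the 10 genes 14 windows were found. They were searched on both strands for a CArG box, the site of serum response factor, for a MEF2 site, for the cyclic AMP response element TGACGTCA, for the EGR sites GCGTGGGCG and GCGGGGGCG, and for TATAAA. A CArG box was present in 4 of the 5 Egr2 windows and in no window of the other searched members, against 1.63% of all 32851 windows. Of these, 3 windows overlap and hold the same CCATATATGG, so the 4 windows amount to 2 sites. A MEF2 site was present in the windows of Klf2 and Nr4a2 (3.19% of all windows), and GCGGGGGCG in those of Klf2, Klf4 and Nr4a1 (2.91%). TATAAA matched once, inside the Nr4a2 MEF2 site (13.6% of all windows), while TGACGTCA (1.79%) and GCGTGGGCG (0.612%) had no match. The stretches with MEF2 sites are shown for Klf2 and Nr4a2 because both carry the same kind of site while Klf2 had the lowest ratios to vehicle and Nr4a2 had ratios near 0, and the CArG boxes of Egr2 because it was the EGR gene farthest from vehicle on the GW9662 array. Capitals mark the MEF2 sites, the CArG boxes and, as the first capitals in Klf2 and the capitals in Nr4a1, GCGGGGGCG on either strand.
Klf2, chr8:72318812-72319061, plus strand: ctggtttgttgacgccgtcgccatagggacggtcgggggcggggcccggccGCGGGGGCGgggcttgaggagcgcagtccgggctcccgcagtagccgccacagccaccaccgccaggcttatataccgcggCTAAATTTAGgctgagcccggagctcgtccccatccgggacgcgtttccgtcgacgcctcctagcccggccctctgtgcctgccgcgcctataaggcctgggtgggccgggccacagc
Nr4a2, chr2:57124004-57124253, minus strand: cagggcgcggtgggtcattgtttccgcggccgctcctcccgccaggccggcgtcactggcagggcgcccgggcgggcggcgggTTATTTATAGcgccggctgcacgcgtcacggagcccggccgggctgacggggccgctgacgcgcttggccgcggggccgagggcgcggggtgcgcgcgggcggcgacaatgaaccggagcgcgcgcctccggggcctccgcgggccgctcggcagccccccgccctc
Egr2, chr10:67537484-67537513, plus strand: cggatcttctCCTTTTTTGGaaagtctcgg
Egr2, chr10:67537787-67537816, plus strand: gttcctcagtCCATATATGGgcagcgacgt
Nr4a1, chr15:101266775-101266804, plus strand: tgcgtcagtggCGCCCCCGCccctctccat

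On the GW9662 array 7 of the 9 measured members were lower than with vehicle, Klf4 was higher and Nr4a2 was level. The lowest was Klf2, with a log2 ratio of -1.06, followed by Egr2 at -0.68, Csrnp1 at -0.64 and Egr1 at -0.62, while Klf4 stood at 0.29. The median over the 9 members was -0.45, beside -0.02 over all 15795 genes measured on both arrays. Only Klf2 was at least 2-fold lower, where 0.469% of all genes were, and 4 members were at least 1.5-fold lower, where 1.15% were. No member was at least 1.5-fold higher, where 0.696% were, or 2-fold higher, where 0.355% were. A ratio below 0 was found in 7 of 9 members and in 57.8% of all genes.

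On the epoxides array the 7 members that were lower with GW9662 were also below vehicle, each by a smaller reading. For Klf6 and Ier2 the treated arrays differed by only 0.05 and 0.10, inside the error model SD of 0.20, so no order is given for them. Klf2 was again the lowest at -0.62, Ier2, Csrnp1 and Klf6 had -0.34, -0.32 and -0.31, and Klf4 was again higher, at 0.33. The median was -0.27, beside -0.07 over 15816 genes, and 8 of 9 ratios were below 0, as were 61.1% of all. No member was at least 2-fold lower (2.07% of genes) and 1 was at least 1.5-fold lower (8.85%), shares near those of all genes. None was at least 1.5-fold higher (1.34%) or 2-fold higher (0.215%). Both comparisons use the same vehicle array, so their ratios share its error.

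**Figure D1:**
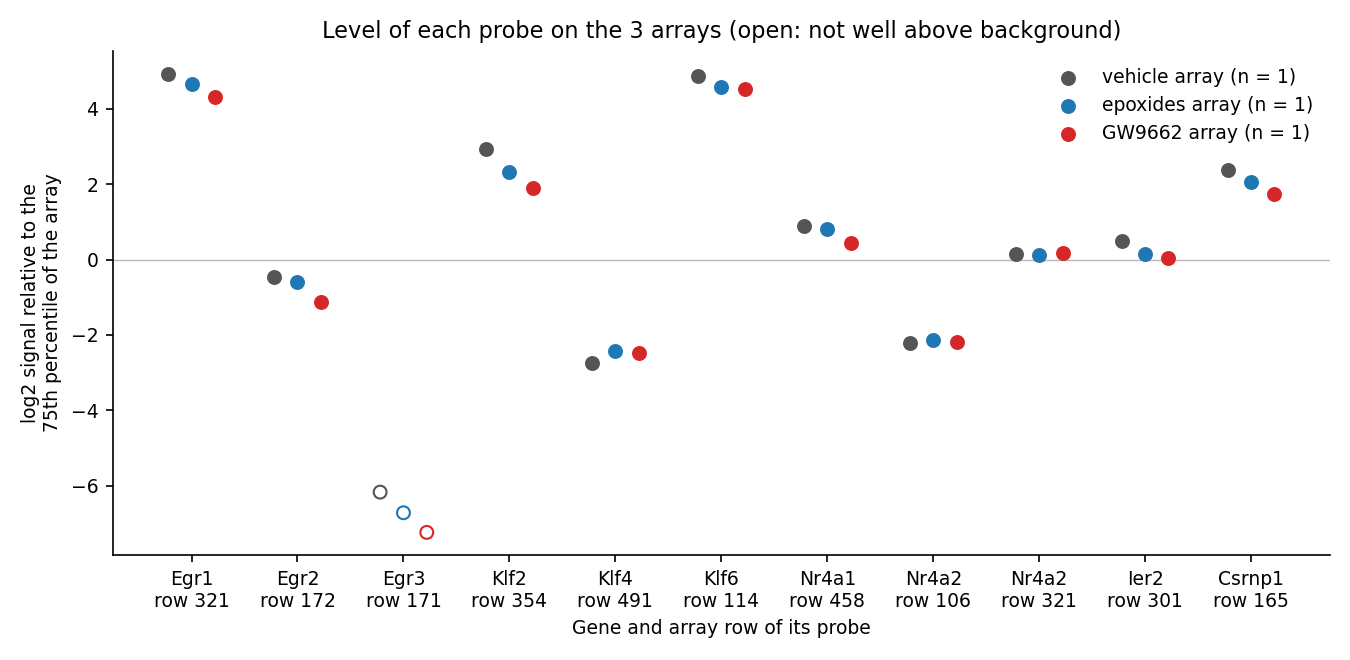
Levels of the 11 member probes (log2 signal, 0 at each array's 75th percentile, vertical axis) on the vehicle, epoxides and GW9662 arrays, 1 array each, by gene and array row; open circles are not well above background. Egr1, Egr2, Klf2, Nr4a1 and Csrnp1 are lowest on the GW9662 array, and Klf6 and Ier2 are below vehicle on both treated arrays. Klf4 is lowest with vehicle, and Nr4a2 is level in both probes.

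Among the EGR genes, which encode zinc finger factors that bind GC-rich sites, Egr1 had levels of 4.93 with vehicle, 4.66 on the epoxides array and 4.31 on the GW9662 array. The log2 ratios to vehicle were -0.27 and -0.62 (error model SD 0.20 each). The epoxides ratio of Egr1 was -0.14 with quantile normalization and -0.15 with cyclic loess, inside that SD. With a trend in probe GC content and signal removed it was -0.33. Egr2, which drives Ccl1 transcription after IgE receptor crosslinking in mast cells and myelination genes in Schwann cells, had levels of -0.46, -0.59 and -1.14. For Egr2 the epoxides array was near vehicle (log2 ratio -0.13, or -0.25 with a trend in probe GC content and signal removed) and the GW9662 array lay apart from both (-0.68 to vehicle, and 0.55 for epoxides over GW9662). Egr3, a related factor with a role in lymphocytes and muscle spindles, had readings of -6.18, -6.72 and -7.24, below the lowest levels called well above background (-4.84, -5.57 and -5.03), so no ratio is given for it. Egr4, the remaining member of the family, was likewise below background on every array.

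The KLF genes encode zinc finger factors that bind GC-rich and CACCC sites. Klf2, a factor that holds lymphocytes and endothelium quiescent and is induced through the kinase ERK5 and MEF2 factors, had levels of 2.95, 2.33 and 1.89 on the vehicle, epoxides and GW9662 arrays. Its log2 ratios to vehicle were -0.62 and -1.06 (1.54-fold and 2.08-fold lower; error model SD 0.20 each). Only 69 of 15795 genes had a lower ratio on the GW9662 array, and none of the 1639 genes within 0.5 of its mean level did. On the epoxides array 1263 genes were lower, and 0.915% of the 1639 genes of like level were.

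Klf6, a widely expressed factor induced by injury, had levels of 4.88, 4.58 and 4.53. Both treated arrays lay below vehicle (-0.31 and -0.36). The epoxides ratio of Klf6 was smaller in other settings, at -0.18 (quantile), -0.19 (cyclic loess) and -0.15 (trend removed), while the GW9662 ratio was -0.33, -0.33 and -0.32. Klf4, known from myeloid differentiation and pluripotency, had levels of -2.76, -2.43 and -2.47, with the vehicle array lowest (ratios of 0.33 and 0.29, error model SD 0.23 each). It was also the dimmest measured member probe, with a mean spot signal 13.2 times the local background on the vehicle array, against 644.7 times for Klf2. Of genes of like level 91.0% had a lower ratio than Klf4 on the epoxides array and 94.6% on the GW9662 array.

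The NR4A genes encode nuclear receptors without a known physiological ligand, which act through the amount that is made. Nr4a1 (Nur77) had levels of 0.89, 0.80 and 0.44. As for Egr2, the epoxides array was close to vehicle (-0.09, or 0.01 with the trend removed) and the GW9662 array was lower (-0.45). Nr4a2 (Nurr1) had levels of 0.14, 0.11 and 0.16 by its brighter probe and -2.21, -2.13 and -2.19 by the other. Its log2 ratios were -0.03 and 0.08 on the epoxides array and 0.02 by both probes on the GW9662 array, so the 2 probes gave like ratios from array rows 321 and 106. Nr4a3, the third receptor of the family, was not well above background on any array.

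Ier2, a small nuclear protein of the early response, had levels of 0.48, 0.14 and 0.04, and log2 ratios to vehicle of -0.34 and -0.44. With the trend removed the epoxides ratio of Ier2 was -0.04 and the GW9662 ratio -0.36. Csrnp1, a cysteine- and serine-rich nuclear protein first described as a gene induced by AXIN1, had levels of 2.39, 2.06 and 1.75, with ratios of -0.32 and -0.64. On the GW9662 array 159 of 15795 genes had a lower ratio than Csrnp1, and 163 lower than Egr1.

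**Figure D2:**
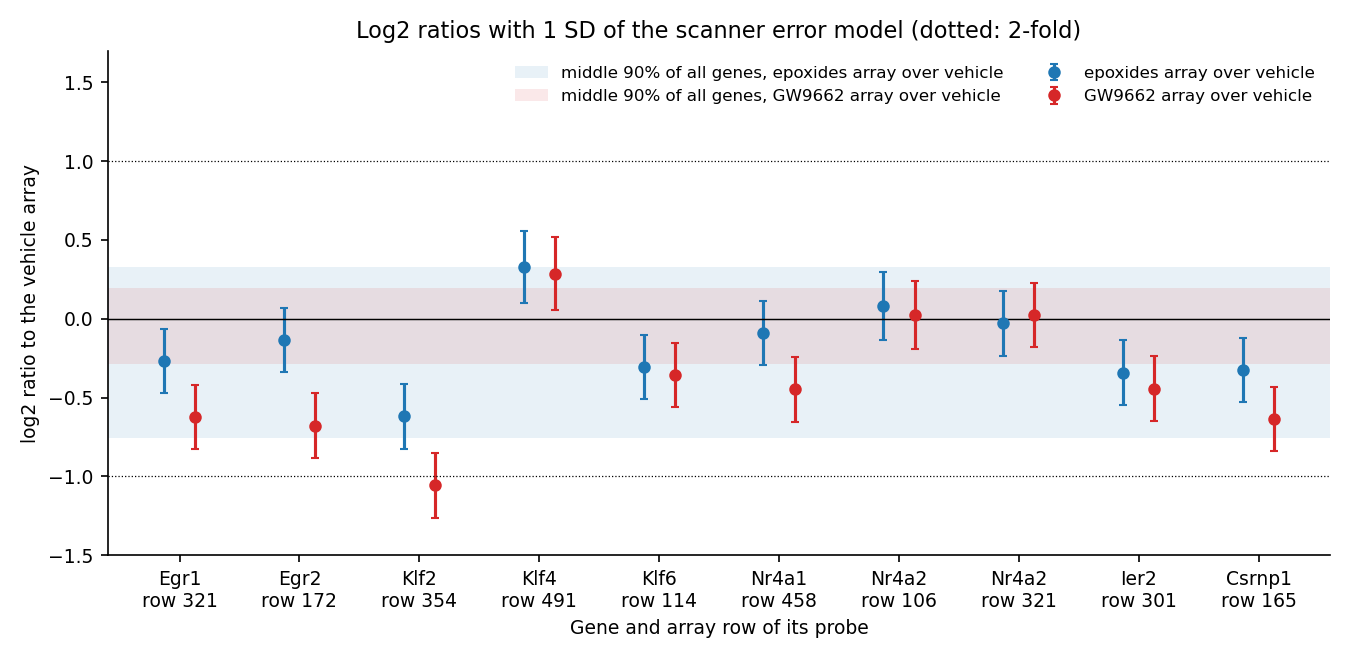
Log2 ratios to the vehicle array (vertical axis) of the 10 measured member probes by gene and array row, with bars of 1 SD of the scanner error model; bands span the 5th to 95th percentile of all genes, -0.76 to 0.33 for the epoxides array and -0.29 to 0.20 for the GW9662 array. The epoxides points lie inside their band, with Klf4 at its upper edge, while 7 GW9662 points lie below theirs and Klf4 lies above it.

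Set against each other, the treated arrays differed by a median of 0.31 over the 9 members (epoxides over GW9662), beside -0.06 over 16048 genes. Egr2 had 0.55, Klf2 0.44, Nr4a1 0.36, Egr1 0.35 and Csrnp1 0.31, and the other members were between -0.05 and 0.10. No member was at least 1.5-fold apart, where 0.947% of genes were that much higher on the epoxides array and 4.8% lower. At 2-fold these shares were 0.206% and 0.96%, again with no member. The vehicle array does not enter this comparison.

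**Figure D3:**
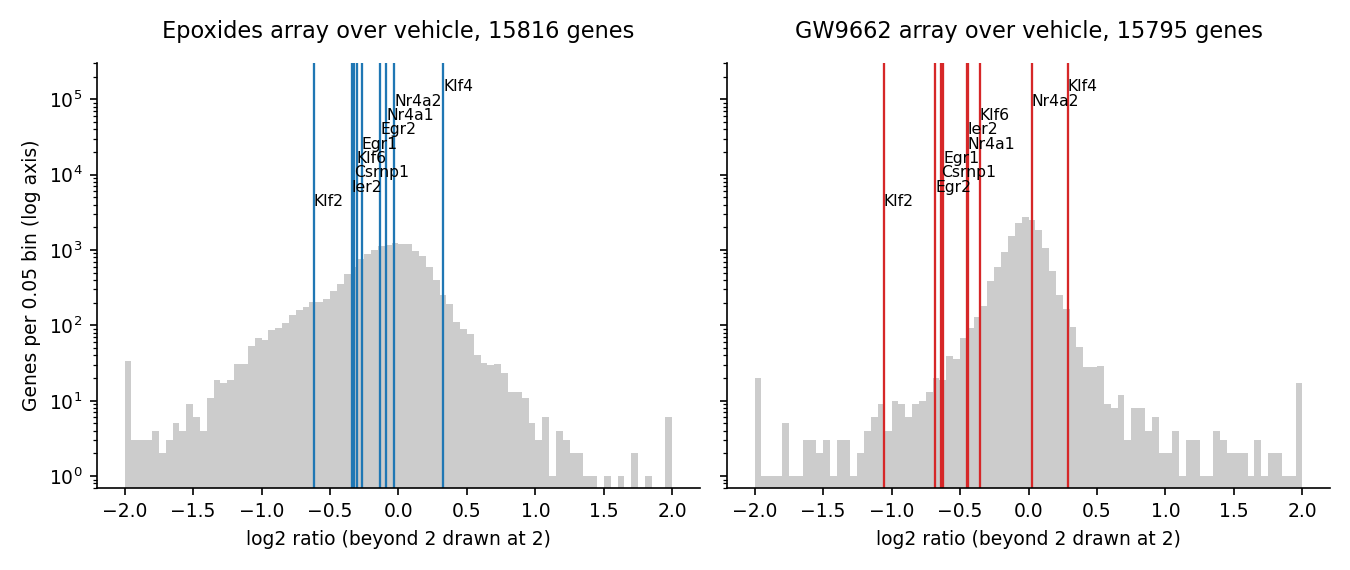
Distribution of log2 ratios to vehicle over all measured genes (horizontal axis; counts per bin of 0.05 on a log axis) for the epoxides array (left, 15816 genes) and the GW9662 array (right, 15795 genes), with the 9 measured members as lines. The members stand among the bulk of genes on the left, and on the right Klf2, Egr2, Csrnp1 and Egr1 lie in the sparse lower tail.

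The epoxides ratios depended on the scaling more than those of the GW9662 array. The 75th percentile signal was 1916 on the vehicle array, 2316 on the epoxides array and 2004 on the GW9662 array, so scaling took 0.27 from each epoxides ratio and 0.065 from each GW9662 ratio. Before scaling, the processed signal of Egr1 was 58540 with vehicle, 58719 with epoxides and 39797 with GW9662. Unscaled log2 ratios on the epoxides array were -0.35 for Klf2, between -0.07 and 0.00 for Ier2, Csrnp1, Klf6 and Egr1, and 0.60 for Klf4. Egr2 and Nr4a1, which were below vehicle after scaling, had 0.14 and 0.18 unscaled, and the probes of Nr4a2 had 0.24 and 0.35. On the GW9662 array Klf2 had -0.99 and Egr2 -0.61. For Klf2 and Klf4 the sign on both arrays, and for the other 6 lower members the sign on the GW9662 array, was thus the same without scaling. On the epoxides array the sign of Egr2 and Nr4a1 was not, and Egr1 lay at 0.00.

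Egr1, Ier2, Klf2 and 1 probe of Nr4a2 were printed in rows 181 to 400 of 532, where 7.69% of the copies of repeated probes were 2-fold or more off the median of their probe, against 0.589% elsewhere. The Klf2 spot is also in the first column of the array. The spots within 5 rows and 5 columns of each member probe had median ratios to vehicle between -0.08 and 0.05, and that of Klf2 on the GW9662 array was 0.05 over 34 spots (quartiles -0.08 and 0.16). Reduced by these local medians, the GW9662 ratios were -1.11 for Klf2, -0.69 for Egr2, -0.63 for Egr1 and -0.60 for Csrnp1. Of the members lower on the GW9662 array, Egr2, Csrnp1, Nr4a1 and Klf6 were printed outside these rows, while Klf2, Egr1 and Ier2 had no probe elsewhere. No member spot was marked as an outlier.

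**Figure D4:**
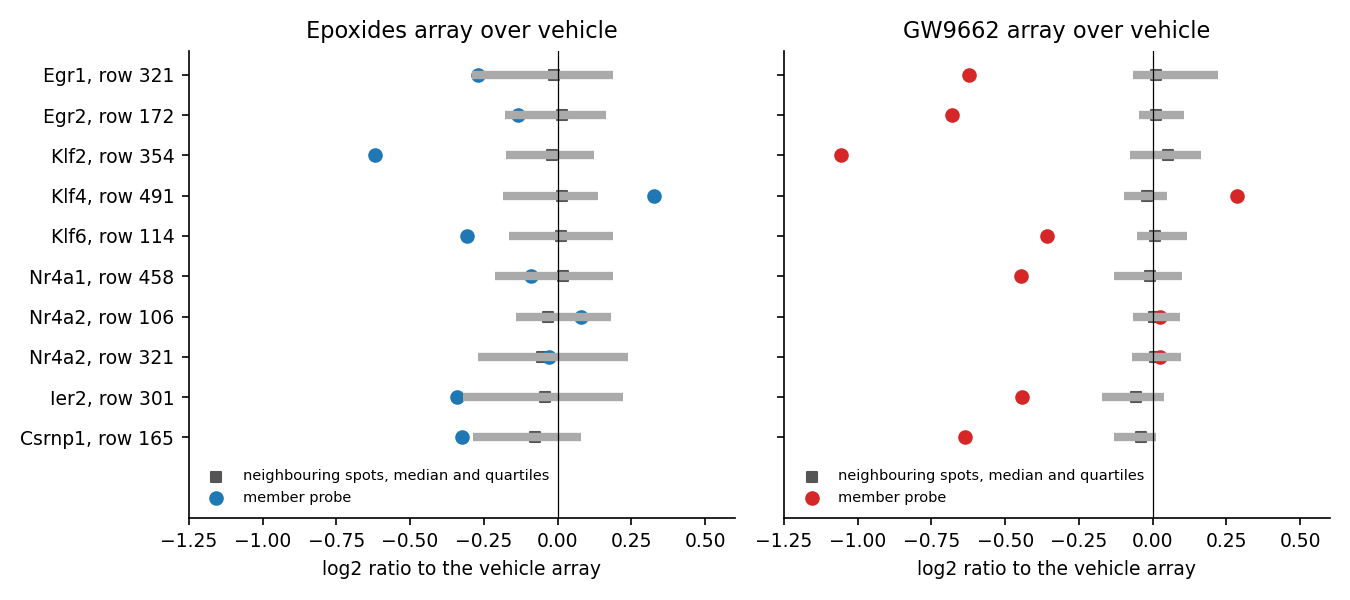
Log2 ratio to vehicle (horizontal axis) of each measured member probe (coloured circles) beside the median and quartiles of the measured spots within 5 rows and 5 columns (grey), for the epoxides array (left) and the GW9662 array (right). Neighbouring spots centre near 0 throughout, and on the right 7 member probes lie below their lower quartile and Klf4 lies above its upper quartile.

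Genes outside the families were read from lists chosen with earlier results known. Of 30 other immediate early genes 23 were measured on the vehicle and GW9662 arrays, and 19 of them had ratios below 0 (57.8% of all genes), with a median of -0.28 (-0.02 over all genes). Dusp1, a phosphatase of MAP kinases, had -0.69, the AP-1 subunit Fos -0.59, the stress factor Atf3 -0.55 and the small GTPase Rhob -0.54. Dusp1 and Fos were the 2 at least 1.5-fold lower (1.15% of all genes), and none was 2-fold lower (0.469%). The 9 usable copies of the Fos probe gave -0.59 ± 0.042 (SD over copies of 1 probe, which share the RNA) on the GW9662 array and -0.42 ± 0.025 on the epoxides array.

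On the epoxides array 17 of 24 had ratios below 0 (61.1% of all genes), with a median of -0.13 (-0.07 over all genes), both near the values of all genes. Ccn1, a secreted matrix protein, had -1.13 from 1 dim spot in the rows named above, and Junb, Fosb and Nfkbiz, an inducible nuclear I-kappa-B protein, had -0.57, -0.56 and -0.54.

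Of 21 relatives of the members, among them Klf3, Klf10, Ier3, Csrnp2 and Csrnp3, 12 were measured. Their median was -0.05 on the GW9662 array (-0.02 over all genes) and -0.10 on the epoxides array (-0.07 over all genes). The latter was positive (0.045) without those rows and with a trend in probe GC content and signal removed. Csrnp3, a relative of Csrnp1, had -1.23 on the epoxides array and -0.45 on the GW9662 array, Ier3 had -0.37 and -0.29, and Klf10, a factor induced by TGF-beta, had 0.17 and 0.37. No relative was 1.5-fold apart from vehicle on the GW9662 array, where 1.15% of all genes were lower and 0.696% higher. On the epoxides array Csrnp3 alone was, where 8.85% of all genes were lower and 1.34% higher. That 1 of 12 is near the share of all genes.

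Transcription factors and kinases that act upstream of early genes went both ways. Of 19, 18 were measured. Ratios were below 0 for 9 on the epoxides array (61.1% of all genes) and for 11 on the GW9662 array (57.8%), the latter near the share of all genes. The median on the epoxides array was -0.03 (-0.07 over all genes), and was positive with quantile normalization, cyclic loess and the trend removed. On the GW9662 array the median was -0.04 (-0.02 over all genes). Mef2a, a MEF2 factor, had 0.66 on the epoxides array and 0.14 on the GW9662 array, and was the 1 gene of the list at least 1.5-fold from vehicle on either. Of all genes 1.34% were that much higher and 8.85% lower on the epoxides array, and 0.696% and 1.15% on the GW9662 array. The kinase Map2k2, which activates ERK, had -0.42 and -0.13, and Elk1, an ETS factor printed in the rows named above, had -0.34 and -0.05. The kinase Rps6ka3 had 0.07 and 0.23. Elk4, another ETS partner of serum response factor, had -0.32 and -0.22. Nab1 and Nab2, co-repressors that EGR factors bind and induce, had 0.11 and 0.12 on the epoxides array, where their median turned negative (to -0.046 at the lowest) with the trend removed, and 0.08 and 0.10 on the GW9662 array.

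Of 3 genes linked to EGR factors in mast cells, each had a ratio below 0 on the GW9662 array, as did 57.8% of all genes. Ccl1, a chemokine that depends on Egr2 in mast cells, had levels of -2.42, -3.94 and -3.82 from 1 spot in the rows named above, and was 2-fold or more lower on both treated arrays (-1.52 and -1.40). Tnf, with 10 copies of its probe, had 0.02 ± 0.034 on the epoxides array and -0.29 ± 0.033 on the GW9662 array (SD over copies), and Il13, also in those rows, had -0.11 and -0.26. Without those rows only Tnf is left of the 3. Of 6 genes known as KLF2 targets in lymphocytes or endothelium 3 were measured: the integrin chain Itgb7 had -0.33 and -0.10, Nos3 -0.23 and -0.39, and Thbd -0.09 and 0.06.

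**Figure D5:**
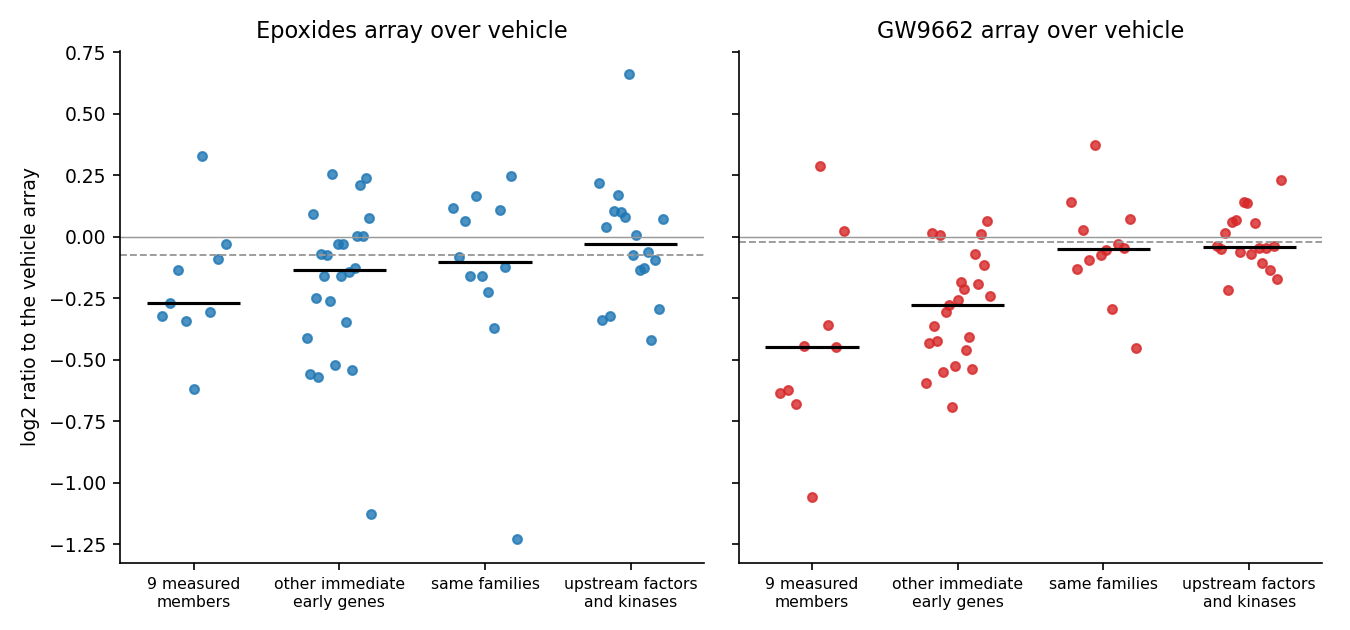
Log2 ratios to vehicle (vertical axis) on the epoxides array (left) and the GW9662 array (right) for the 9 measured members, other immediate early genes, further genes of the same families, and upstream factors and kinases; each point is a gene, black lines are list medians and the dashed line is the median of all genes. On the right the members (median -0.45) and other early genes (-0.28) lie below the dashed line, and the medians of the relatives (-0.05) and upstream genes (-0.04) lie near it.

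The genes most like a member were those at the smallest distance in the pair of ratios to vehicle, taken over 3 arrays from the brighter part of the measured genes (7844). For Egr1 they were the activation antigen Cd69 (distance 0.13), Fos (0.15), the cytokine Osm (0.16), the nuclear RNA Malat1 (0.18) and the kinase Plk3 (0.21). Within the brighter part Plk3 was also nearest to Egr2 (0.22) and to Nr4a1 (0.054), where the cytokine signalling inhibitor Socs3 followed (0.12). Measured genes below the median signal were not compared, Atf3 and Rhob among them. Their ratios with epoxides and GW9662 (-0.16 and -0.55, -0.13 and -0.54) were nearer to those of Egr2 (-0.13 and -0.68) than those of Plk3 (-0.14 and -0.46). In the brighter part no gene came close to Klf2: the nearest, Fos, was 0.51 away, and the next, the chemokine Ccl4, 0.53. The dimmer Dusp1, also not compared, was nearer to Klf2 than Fos on both arrays (-0.52 with epoxides and -0.69 with GW9662). Distances below about the technical SD of 0.080 have no order.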

How the data were processed

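RNA (200 ng per the labels) was labelled with Cy3 and hybridised to arrays with probes of 60 bases. Agilent Feature Extraction 11.5.1.1 is named in the submitters' processing notes. Per the file headers, spatial and multiplicative detrending were switched on, and the processed signal is a linear intensity with its own error intensity. The authors' deposited value table holds a linear ratio, the processed intensity over a constant for each array (tolerance 0.001).

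Levels are log2 processed signal less log2 of each array's 75th percentile, controls excluded. Outlier-marked spots were left out, copies averaged, probes named through RefSeq (28324 of 39429) or else by the file, and each gene read by its brightest probe, if well above background on both arrays. The calls are 2-fold and 1.5-fold. Members, lists and alternatives were chosen with earlier results of these data known. Named were all members, the Pafah2 probe and up to 4 genes farthest from 0 per list and comparison. Also named were the 5 genes nearest to each of Egr1, Egr2, Klf2 and Nr4a1 among those at or above the median signal. Egr4, Nr4a3 and single cell markers were named after their values were seen. Alternatives used limma 3.58.1 in R 4.3.3 (normexp with offset 50, quantile, cyclic loess) and Python 3.11.15. The calculation was tested on simulated data.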

Additional observations from a re-analysis of the deposited data

How the results depend on the processing

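With 1 array per group, spot error is the only error known. No paired analysis was possible because each group holds 1 array. The member median on the GW9662 array was -0.27 in the authors' value table as labelled and -0.53 with no filter on dim probes, where Egr3 enters below background. On the epoxides array it was -0.14 with quantile normalization, -0.15 with cyclic loess, -0.15 with a trend in GC content and signal removed, -0.11 without rows 181 to 400 and -0.074 with both, over 6 members without those rows, and -0.45 in the value table. For epoxides over GW9662 it was 0.19 without the rows, 0.23 with the trend removed as well, and -0.31 in the value table, which swaps the treated arrays. Members at least 2-fold from vehicle on the GW9662 array numbered 1, but 0 in the value table, 0 without the rows, which hold Klf2, with or without the trend, 2 with no filter and 4 at 1.5-fold; on the epoxides array they numbered 0, but 1 in the value table and 1 at 1.5-fold. Other settings moved these medians by less than the technical SD. Over the settings that keep the file labels, 8 of 10 ratios of Nr4a1 and 5 of 10 of Nr4a2 on the epoxides array were negative. Local medians were added after the data were seen.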
